A study of Mus musculus with 12 samples.

Results

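The genes examined here code for the subunits of the oxidative phosphorylation system that the nucleus supplies. The rule for choosing them uses symbols alone, with the prefixes Nduf, Sdh, Uqcr, Cox and Atp5 followed by a subunit code. This gave 83 of the 53379 genes in the tables. By symbol, 37 belong to complex I, 4 to complex II, 8 to complex III, 18 to complex IV and 16 to complex V. All 83 were found in GENCODE M21 (GRCm38), and they lie on 19 chromosomes. The symbols are not exact for every member. Ndufa4 and its relative Ndufa4l2 are counted in complex I here although textbooks place Ndufa4 in complex IV, Cox7a2l is a supercomplex assembly factor, and Atp5s is a coupling factor rather than a subunit of ATP synthase.

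Complexes I, III and IV pass electrons from NADH to oxygen and pump protons across the inner mitochondrial membrane. Complex II feeds in electrons from succinate, and complex V, ATP synthase, uses the proton gradient to make ATP. Most subunits come from nuclear genes scattered over the genome, and a small set comes from mitochondrial DNA. Pluripotent stem cells are known to draw much of their ATP from glycolysis, and respiration usually gains weight as they differentiate.

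RNA was sequenced from ZHBTc4 cells, a mouse embryonic stem cell line of strain 129/Ola whose own Pou5f1 alleles are disrupted. An Oct4 transgene, silenced by doxycycline, stands in for them, and all 6 groups carry both changes. The groups of 2 libraries each were Phf6 KO and WT cells with doxycycline for 2 days, Phf6 KO and WT cells kept 4 days without LIF in medium with all-trans retinoic acid, and untreated Phf6 KO and WT cells. Doxycycline was at 0.5 µg/ml in the sample labels and at 0.5 mg/ml in their protocol text, and retinoic acid at 10 mM in that text. The labels give passage 1 and an early phase on feeder fibroblasts, and say neither whether replicates were separate cultures nor how many KO clones were used, so the p-values here reflect the spread among libraries, which may be technical.

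Libraries held 15799517 to 21441996 counts. Phf6, the targeted gene on chromosome X, was present at 7.38 and 8.19 CPM (counts scaled to a common library size) in KO and 35.1 and 29.9 CPM in WT cells with doxycycline, at 5.90 and 5.96 CPM in KO and 40.3 and 40.7 CPM in WT cells with retinoic acid, and at 4.49 and 6.50 CPM in KO and 42.8 and 40.2 CPM in WT cells without treatment. The KO libraries were below the WT libraries in every condition. The 10 markers of pluripotent cells summed to 448 to 669 CPM with doxycycline, 1850 to 3271 CPM with retinoic acid and 8035 to 8880 CPM without treatment. The 8 trophectoderm markers reached 1512 to 2686 CPM with doxycycline and 365 to 454 CPM with retinoic acid, against 80.4 to 122.9 CPM in untreated cells. The 6 primitive endoderm markers reached 2187 to 4323 CPM with retinoic acid against 98.1 to 156.9 CPM in untreated cells. With doxycycline Krt8 and Krt18 held most of the trophectoderm sum, and with retinoic acid Lama1 held most of the primitive endoderm sum. By an edgeR adjusted p below 0.05, 6 of 7 tested trophectoderm markers rose with doxycycline in either line. So did all 6 primitive endoderm markers with retinoic acid. The 8 markers of feeder fibroblasts summed to 24.1 to 73.7 CPM and those of striated muscle to 8.33 to 12.9 CPM in all groups. In bulk RNA, fewer cells of a type and less RNA per cell cannot be told apart.

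Levels between genes are compared here only as TPM, which corrects for transcript length. ATP synthase had the highest summed level, at 9452 to 9562 TPM in KO and 8494 to 8708 TPM in WT cells with doxycycline, 8252 to 8502 TPM in KO and 8061 to 8173 TPM in WT cells with retinoic acid, and 10270 to 10310 TPM in KO and 9872 to 9901 TPM in WT cells without treatment. Atp5b, the catalytic beta subunit, was its highest member at 2379 TPM on average over the 12 libraries. In complex IV the highest member was Cox4i1, a regulatory subunit, at 1309 TPM, and in complex III it was Uqcr10, a small membrane subunit, at 621 TPM. Ndufa4 led complex I by symbol at 575 TPM and Sdhd, a membrane anchor, led complex II at 239.5 TPM. The lowest tested members of each complex were Ndufa4l2 at 6.85 TPM, Sdhc, the other membrane anchor, at 149 TPM, the Rieske protein gene Uqcrfs1 at 151 TPM, Cox8c at 1.56 TPM and Atp5s at 16.2 TPM. ATP synthase and complex IV thus held the subunit genes of highest level.

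All but 3 members passed the filter on low counts and were tested. The exceptions are tissue-specific complex IV genes: Cox8b, a muscle isoform, had 0 counts in every library, which allows at most 0.132 to 0.204 CPM, Cox6a2, another muscle isoform, had at most 4 counts in a library, and Cox7b2, a testis isoform, at most 10.

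**Figure D1:**
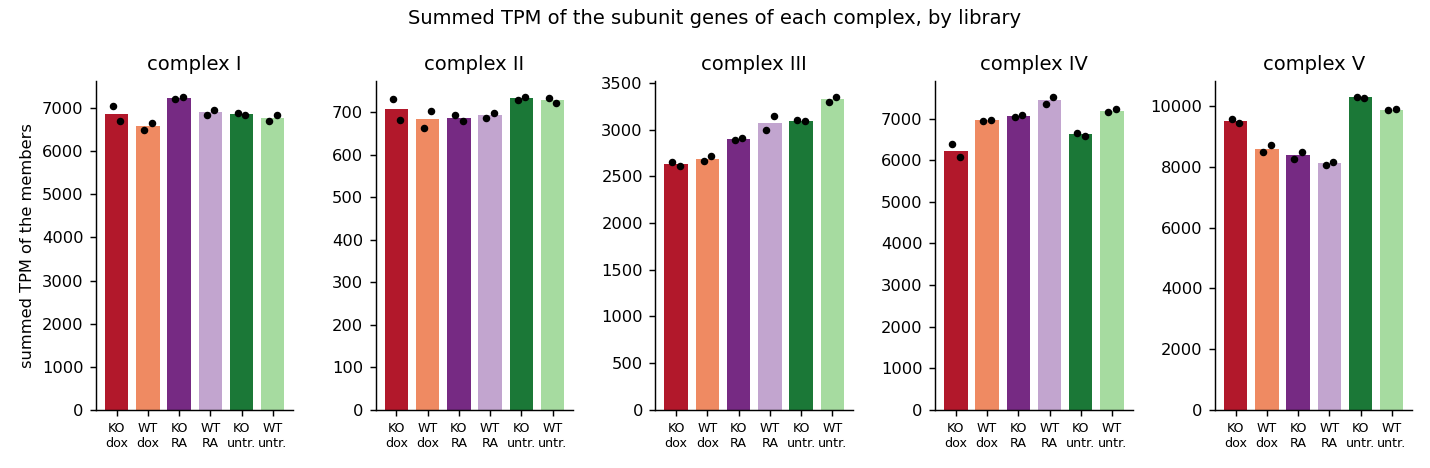
Summed TPM of the subunit genes of each complex. Bars are means of the 2 libraries of a group and points are the libraries, with dox for doxycycline, RA for retinoic acid and untr. for untreated. Complex V was at 8061 to 8502 TPM with retinoic acid against 9872 to 10310 TPM without treatment, while complex I was at 6839 to 7270 TPM with retinoic acid against 6694 to 6888 TPM without treatment.

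The first comparison asks how the subunits stood in retinoic acid-treated cells. Most of them were lower in both lines on the TMM scale, which is relative to the bulk of the transcriptome, while on log2(TPM + 1) nearly as many rose as fell. Of the 80 members tested, 70 fell and 4 rose in KO cells, where 34.6% of all 17884 genes tested were called lower and 40.9% higher. In WT cells 69 fell and 4 rose, where 32.9% of all genes were lower and 41.0% higher. A gene is called when edgeR's quasi-likelihood test gives an adjusted p below 0.05 over all genes. The median log2 change of the members was -0.55 in KO and -0.58 in WT cells, and that of all genes was 0.10 in KO and 0.12 in WT cells. RNA of the retinoic acid libraries went through an RNeasy kit after Trizol and that of the untreated libraries through Trizol alone. The treated cells were also kept 4 days without LIF, and no group lacked LIF without retinoic acid. Extraction, retinoic acid, removal of LIF and time in culture therefore cannot be told apart.

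These values depend on what the libraries are scaled to. The TMM factors, which assume that most genes do not change, were 1.147 to 1.163 in the retinoic acid libraries against 0.901 to 0.929 in the untreated libraries. With library totals alone, an alternative chosen after seeing the data, 46 members fell and 14 rose in KO cells and 47 fell and 12 rose in WT cells, with medians of -0.22 in KO and -0.24 in WT cells. On log2(TPM + 1) with limma, also chosen after seeing the data, 25 fell and 23 rose in KO cells and 27 fell and 20 rose in WT cells, and the medians were -0.00 in KO and -0.06 in WT cells. All genes then had medians of 0.42 in KO and 0.43 in WT cells. The distance between the members and all genes was therefore -0.65 in KO and -0.70 in WT cells on the TMM scale, -0.65 in KO and -0.70 in WT cells with library totals, and -0.42 in KO and -0.48 in WT cells on log2(TPM + 1). The summed TPM of all 83 members was 26100 and 26440 in KO and 25930 and 26510 in WT cells with retinoic acid, against 27670 and 27520 in KO and 27760 and 28040 in WT cells without treatment, so the treated libraries were lower without overlap but close to the untreated ones.

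**Figure D2:**
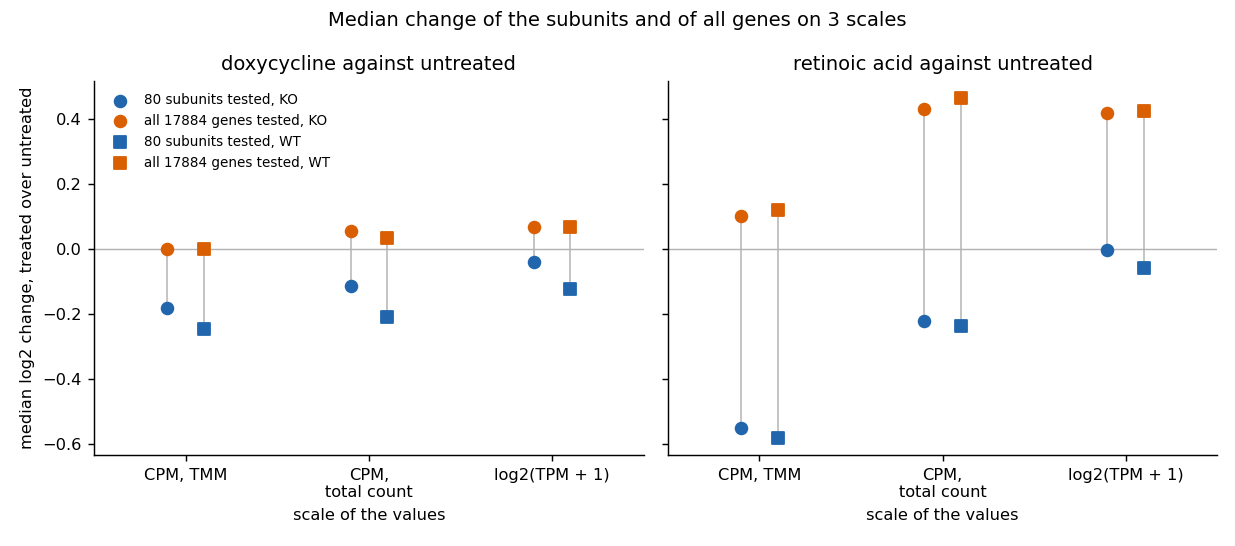
Median log2 change, treated over untreated, of the 80 subunit genes tested (blue) and of all 17884 genes tested (orange) on 3 scales, with circles for KO and squares for WT. With retinoic acid the subunits lay below all genes on each scale, at -0.55 and -0.58 with TMM but at -0.00 and -0.06 on log2(TPM + 1).

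On all 3 scales and in both lines 20 members fell. They include 7 of complex V (Atp5a1, Atp5b, Atp5g1, Atp5j2, Atp5k, Atp5l, Atp5o), 8 of complex I (Ndufa9, Ndufb10, Ndufb4, Ndufs1, Ndufs4, Ndufs6, Ndufs7, Ndufv1), Sdhb of complex II, 3 of complex III (Uqcr10, Uqcrc1, Uqcrq) and Cox7b of complex IV. Those that rose on all 3 scales in both lines were Atp5s, Cox6b2 and Cox7a1. The 3 scales use the same libraries. The share of all genes that met the same rule is not given here, so these counts have no background beside them.

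The largest fall on the TMM scale was that of Atp5l, which codes for subunit g in the membrane part of ATP synthase (ENSMUSG00000038717.8, chr9:44912557-44920742, minus strand). Its libraries had 102.7 and 107.7 CPM in KO and 111.4 and 114.7 CPM in WT cells with retinoic acid, against 268 and 256 CPM in KO and 255 and 267 CPM in WT cells without treatment. The log2 change was -1.32 ± 0.06 in KO (SE, edgeR adjusted p = 1.3e-15) and -1.21 ± 0.06 in WT cells (edgeR adjusted p = 7.8e-15). Each SE was taken from the log2 change and its F statistic. In both lines the treated libraries lay below the untreated ones with a wide gap, and the difference between the changes in KO and WT cells was not called (-0.11 ± 0.09).

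Atp5k, which codes for subunit e of the same membrane part, had 29.0 and 31.9 CPM in KO and 35.04 and 35.5 CPM in WT cells with retinoic acid, against 64.6 and 60.8 CPM in KO and 74.2 and 74.7 CPM in WT cells without treatment. The log2 changes were -1.04 in KO and -1.08 in WT cells. The catalytic subunit gene Atp5b was at 1333 and 1362 CPM in KO and 1375 and 1435 CPM in WT cells with retinoic acid, against 2665 and 2631 CPM in KO and 2627 and 2663 CPM in WT cells without treatment, log2 changes of -0.97 in KO and -0.91 in WT cells. Atp5d, another subunit gene of the catalytic part, changed by -0.42 in KO and -0.39 in WT cells on the TMM scale, and by 0.12 in KO and 0.13 in WT cells, not called, on log2(TPM + 1).

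Subunit c, which forms the rotating ring of ATP synthase, comes from 3 genes whose mature proteins are identical. Atp5g1 was at 80.9 and 80.3 CPM in KO and 90.7 and 86.6 CPM in WT cells with retinoic acid, against 187 and 179 CPM in KO and 194 and 199 CPM in WT cells without treatment. It changed by -1.18 ± 0.06 in KO and -1.15 ± 0.06 in WT cells on the log2 scale, whereas Atp5g2 changed by -0.67 in KO and -0.66 in WT cells and Atp5g3 by -0.57 in KO and -0.60 in WT cells. As a share of the summed TPM of the 3 genes, which no library scaling can change, Atp5g1 made up 20.9% and 20.3% in KO and 23.9% and 23.3% in WT cells with retinoic acid, against 29.1% and 29.0% in KO and 32.0% and 31.3% in WT cells without treatment. Atp5g3 made up 50.7% in KO and 49.7% in WT cells with retinoic acid on average, against 44.1% in KO and 43.8% in WT cells without treatment. The mixture of subunit c genes therefore differed between treated and untreated cells in both lines without overlap. Some counts of Atp5g1 and Atp5l were not whole, since RSEM divides reads that several genes share.

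By complex, all 8 members of complex III and all 4 of complex II fell in both lines on the TMM scale, of which Sdhc, Sdhd, Uqcr11, Uqcrfs1 and Uqcrh in KO cells and Sdha, Sdhc, Uqcrb, Uqcrc2 and Uqcrh in WT cells were above 0 on log2(TPM + 1). So did 15 of 16 in complex V, where the exception is Atp5s. In complex I 33 of 37 fell in either line, and in complex IV 10 of 15 in KO and 9 of 15 in WT cells. The median log2 changes in KO cells were -0.44 in complex I, -0.59 in II, -0.62 in III, -0.40 in IV and -0.71 in V. In WT cells they were -0.48 in complex I, -0.57 in II, -0.73 in III, -0.54 in IV and -0.70 in V. On log2(TPM + 1) the medians of complexes I and IV turned positive, at 0.10 and 0.18 in KO and 0.01 and 0.09 in WT cells, while those of complexes III and V stayed negative, at -0.10 and -0.16 in KO and -0.18 and -0.15 in WT cells.

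Within complex I, Ndufb10, an accessory subunit of the membrane arm, had 50.4 and 59.1 CPM in KO and 53.5 and 54.5 CPM in WT cells with retinoic acid, against 125.9 and 119.9 CPM in KO and 118 and 115 CPM in WT cells without treatment, log2 changes of -1.17 ± 0.10 in KO and -1.11 ± 0.10 in WT cells. Ndufa9, an accessory subunit where the membrane and matrix arms meet, changed by -1.12 in KO and -1.04 in WT cells. At the other end, Ndufa1 had 42.6 and 42.2 CPM in KO and 40.3 and 40.6 CPM in WT cells with retinoic acid, against 48.3 and 42.6 CPM in KO and 48.8 and 49.6 CPM in WT cells without treatment, and was not called (edgeR adjusted p = 0.47 in KO and 0.051 in WT cells). On log2(TPM + 1) Ndufa1 changed by 0.52 in KO and 0.27 in WT cells. Ndufa3 and Cox7a2l were not called in either line either. In complex II, Sdhb, the iron-sulfur subunit, changed by -1.11 ± 0.07 in KO and -0.84 ± 0.07 in WT cells, and Sdha, the flavoprotein, by -0.66 ± 0.05 in KO and -0.47 ± 0.05 in WT cells, the WT value being 0.03 on log2(TPM + 1). In complex III, Uqcrq, a small subunit next to cytochrome b, changed by -1.12 ± 0.07 in KO and -0.86 ± 0.07 in WT cells.

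**Figure D3:**
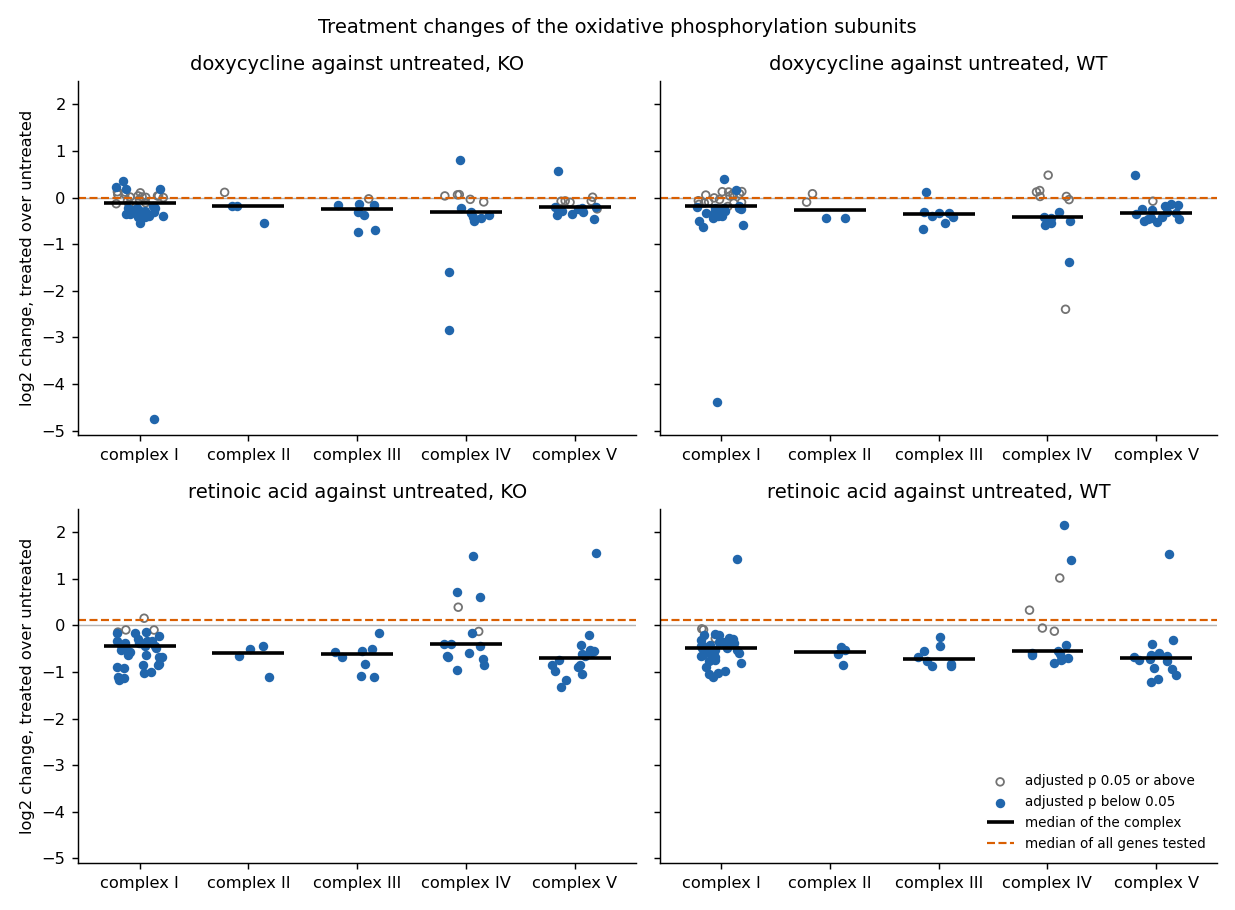
Log2 change of each tested subunit gene, treated over untreated on the TMM scale, by complex in KO (left) and WT cells (right). Filled points passed an adjusted p of 0.05, black bars are medians of a complex and the dashed line is the median of all genes tested. With retinoic acid the medians lie between -0.40 and -0.73, but those of complexes I and IV turned positive on log2(TPM + 1).

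The members are short genes, with a median effective length of 523 bases. Other genes of like length, the 1592 tested genes between the members' length quartiles of 369 and 804 bases, had median changes of -0.27 in KO and -0.25 in WT cells with retinoic acid, and 41.2% of them in KO and 40.0% in WT cells were called lower. Mean fragment lengths were 189 to 197 bases in the retinoic acid libraries and 176 to 188 bases in the untreated ones. The part of length in the members' change was not tested beyond a fit with effective lengths as offsets, in which 63 members fell in KO and 71 in WT cells.

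Promoter sequence was read to describe letters that the members' windows hold. Windows from 250 bases before to 50 bases after the start, from RefSeq on GRCm38.p6, were given for 66 of the 83 members, 71 windows in all. They were searched on both strands for the core letters of motifs known from respiratory genes: CGCATGCG of the activator NRF1, CCGGAAG of ETS factors such as GABPA, and AAGATGGC of YY1. The NRF1 core is its own reverse complement, and in 0 member windows did matches of different motifs share bases. The NRF1 core was in 12.7% of the members' windows and 1.87% of all 32851 windows, the ETS core in 22.5% and 8.86%, the YY1 core in 12.7% and 2.75%, and any of them in 39.4% and 12.6%. Median GC content was 57.3% in the members' windows and 52.7% in all windows. The windows of Atp5l, Atp5k and Uqcr11 are shown because these genes fell with retinoic acid in both lines on the TMM scale and their windows hold the NRF1 and the ETS core. Uqcr11 in KO cells was above 0 on log2(TPM + 1). Of the other 2 members whose windows hold both cores, Atp5j changed by -0.74 in KO and -0.65 in WT cells. Cox6a1 changed by -0.16 in KO and, not called, by -0.13 in WT cells on the TMM scale, and by 0.42 in KO and 0.41 in WT cells on log2(TPM + 1). Those of Cox6b2 and Cox7a1 are shown because both genes rose with retinoic acid in both lines and hold none of the letters searched. Capitals mark the matches, with CTTCCGG for the ETS core on the other strand. The windows are chr9:44920693-44920992 for Atp5l, chr5:108434350-108434649 for Atp5k and chr10:80406772-80407071 for Uqcr11, all on the minus strand, chr7:4753045-4753344 on the minus strand for Cox6b2, and chr7:30183921-30184220 on the plus strand for Cox7a1.
Atp5l: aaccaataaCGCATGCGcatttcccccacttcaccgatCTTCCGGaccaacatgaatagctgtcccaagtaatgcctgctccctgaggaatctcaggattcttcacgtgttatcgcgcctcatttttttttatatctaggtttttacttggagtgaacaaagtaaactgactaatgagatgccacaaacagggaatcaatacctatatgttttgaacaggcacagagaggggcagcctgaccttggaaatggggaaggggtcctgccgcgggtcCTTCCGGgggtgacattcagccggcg
Atp5k: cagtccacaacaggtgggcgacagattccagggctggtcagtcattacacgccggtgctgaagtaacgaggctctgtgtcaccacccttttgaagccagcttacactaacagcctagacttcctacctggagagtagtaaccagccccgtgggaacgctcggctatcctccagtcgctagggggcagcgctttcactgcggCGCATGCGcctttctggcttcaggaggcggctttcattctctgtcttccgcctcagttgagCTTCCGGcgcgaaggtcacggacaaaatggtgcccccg
Uqcr11: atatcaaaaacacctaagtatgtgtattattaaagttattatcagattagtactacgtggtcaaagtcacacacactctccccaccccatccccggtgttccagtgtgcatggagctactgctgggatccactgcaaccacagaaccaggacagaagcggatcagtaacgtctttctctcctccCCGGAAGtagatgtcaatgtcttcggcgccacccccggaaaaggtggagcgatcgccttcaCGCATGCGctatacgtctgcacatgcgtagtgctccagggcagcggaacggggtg
Cox6b2: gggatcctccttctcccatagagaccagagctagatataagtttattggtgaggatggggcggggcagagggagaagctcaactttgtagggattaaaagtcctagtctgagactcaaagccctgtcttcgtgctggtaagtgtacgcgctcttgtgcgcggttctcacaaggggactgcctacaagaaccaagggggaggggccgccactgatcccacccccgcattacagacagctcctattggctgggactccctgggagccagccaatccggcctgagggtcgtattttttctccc
Cox7a1: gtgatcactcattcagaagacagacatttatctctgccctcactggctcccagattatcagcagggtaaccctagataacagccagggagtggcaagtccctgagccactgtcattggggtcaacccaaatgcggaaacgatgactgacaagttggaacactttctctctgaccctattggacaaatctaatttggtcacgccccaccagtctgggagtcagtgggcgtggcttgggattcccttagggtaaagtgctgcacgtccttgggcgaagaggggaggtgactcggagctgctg
A match is a description of the letters in the window, not a measured binding site. The windows shown were picked by direction of change and by matches, so no link between cores and change can be read from them. Windows of 28 members held any of the cores. With retinoic acid 67 members were lower in both lines on the TMM scale. Of all genes, 34.6% were lower in KO and 32.9% in WT cells, and the share lower in both lines is not given here. Whether members with a core fell more often was not tested.

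The second comparison asks how the subunits stood after Oct4 was switched off with doxycycline. No group had the drug without the Oct4 switch, so effects of doxycycline itself and of Oct4 loss cannot be told apart. Relative to all genes more subunits fell than rose in both lines. In KO cells 44 members fell and 6 rose, where 31.2% of all genes were called lower and 31.2% higher. In WT cells 49 fell and 4 rose, where 31.3% of all genes were lower and 31.8% higher. The median log2 change of the members was -0.18 in KO and -0.25 in WT cells, where all genes had medians of -0.00 in KO and 0.00 in WT cells. With library totals 37 fell and 9 rose in KO and 46 fell and 8 rose in WT cells. On log2(TPM + 1) 28 fell and 10 rose in KO and 34 fell and 11 rose in WT cells. The members' medians were then -0.04 in KO and -0.12 in WT cells, against 0.07 in each line for all genes. Upper-quartile factors moved the median of all genes in WT cells to -0.11. The 1592 genes of like length had medians of -0.13 in KO and -0.17 in WT cells, with 29.7% called lower and 17.9% higher in KO and 33.4% lower and 17.4% higher in WT cells. The comparison shares its untreated libraries with that of retinoic acid.

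In complex III 7 of 8 members fell in either line on the TMM scale. The exception was Uqcrc2, a core subunit, at 219 and 213 CPM in KO and 218 and 213 CPM in WT cells with doxycycline, against 214 and 226 CPM in KO and 194 and 204 CPM in WT cells without treatment. Its change of 0.11 ± 0.05 in WT cells (edgeR adjusted p = 0.042) was -0.00 with upper-quartile factors. Uqcrq was at 100 and 80.8 CPM in KO and 98.9 and 101.2 CPM in WT cells with doxycycline, against 155 and 145 CPM in KO and 155 and 162 CPM in WT cells without treatment, log2 changes of -0.73 ± 0.07 in KO and -0.66 ± 0.07 in WT cells. Uqcr10 changed by -0.69 ± 0.11 in KO and -0.55 ± 0.10 in WT cells.

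In complex V 9 of 16 members fell in KO and 14 of 16 in WT cells on the same scale. In complex IV 9 of 15 fell in KO and 8 of 15 in WT cells, with medians of -0.31 in KO and -0.42 in WT cells. In complex I 16 of 37 fell in KO and 18 of 37 in WT cells, with medians of -0.11 in KO and -0.17 in WT cells, and 17 members in either line were not called. In complex II 3 of 4 fell in KO and 2 of 4 in WT cells, and Sdha was not called in either (log2 changes of 0.11 in KO and 0.08 in WT cells). Cox4i1, the most abundant complex IV mRNA, was not called with doxycycline in either line (-0.09 in KO and 0.02 in WT cells), nor was Cox6b1 (0.06 in KO and -0.04 in WT cells).

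Ndufa3, a small accessory subunit of complex I, was the gene that rose with doxycycline in both lines on all 3 scales. It was at 44.4 and 37.6 CPM in KO and 60.5 and 58.0 CPM in WT cells with doxycycline, against 36.6 and 33.1 CPM in KO and 42.2 and 47.9 CPM in WT cells without treatment. The log2 changes were 0.24 ± 0.08 in KO (edgeR adjusted p = 0.014) and 0.39 ± 0.08 in WT cells (edgeR adjusted p = 5.3e-05). Its exons overlap those of Tfpt on the other strand, and with no strand setting given in the sources used here the reads of the pair cannot be told apart.

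The third comparison is that of Phf6 KO with WT cells in each condition. The members had calls in both directions in every condition. In untreated cells 14 fell and 12 rose in KO, where 14.9% of all genes were called lower and 15.2% higher. With doxycycline 14 fell and 16 rose, where 19.1% of all genes were lower and 17.9% higher. With retinoic acid 16 fell and 8 rose, where 20.0% of all genes were lower and 18.8% higher. Medians were 0.03, 0.07 and 0.01, against 0.02, 0.00 and -0.01 for all genes. The split with doxycycline was 12 lower and 32 higher with upper-quartile factors and 12 lower and 31 higher with library totals, that in untreated cells 14 lower and 6 higher with effective-length offsets, and that with retinoic acid 9 lower and 12 higher on log2(TPM + 1). Single libraries moved these counts. In untreated cells, 14 members were lower and 4 higher without WT untreated replicate 1, and 14 lower and 5 higher without KO untreated replicate 1. With doxycycline, 17 were lower and 9 higher without KO doxycycline replicate 1, and 15 lower and 28 higher without KO doxycycline replicate 2. With retinoic acid, 12 were lower and 3 higher without WT replicate 1 of that treatment, 11 lower and 4 higher without KO replicate 1, and 11 lower and 3 higher without KO replicate 2.

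The called genes were not spread evenly over the chromosomes. All 6 members on chromosome 1 were lower in KO in each of the 3 conditions, with median log2 changes of -0.51 in untreated cells, -0.51 with doxycycline and -0.56 with retinoic acid. Of the 1087 tested genes on chromosome 1, 51.7%, 52.2% and 58.2% were called lower in these conditions and the median change was -0.46 in each. Genes of this chromosome as a whole were thus lower in KO, and what lies behind it was not tested. Among the 74 members on other chromosomes, 8 fell and 12 rose in untreated cells, 8 fell and 16 rose with doxycycline, and 10 fell and 8 rose with retinoic acid.

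The chromosome 1 members belong to 3 complexes, and 5 of the 6 are described here. Cox5b (chr1:36691449-36693681) codes for a subunit of complex IV on the matrix side. Ndufb3 (chr1:58586384-58595964), Ndufs1 (chr1:63143596-63176833) and Ndufa10 (chr1:92439010-92473860) belong to complex I, where Ndufs1 is a core subunit of the matrix arm, and Sdhc (chr1:171127165-171150603) belongs to complex II. Ndufa10 had 124 and 122 CPM in KO and 199 and 195 CPM in WT cells without treatment, 127.8 and 124 CPM in KO and 191 and 177 CPM in WT cells with doxycycline, and 66.8 and 71.4 CPM in KO and 115.5 and 115 CPM in WT cells with retinoic acid. The log2 changes were -0.68 ± 0.05, -0.55 ± 0.05 and -0.74 ± 0.05 (edgeR adjusted p at most 1.2e-09). Ndufs1 changed by -0.48, -0.60 and -0.57, and Ndufb3 by -0.45, -0.44 and -0.59. Sdhc changed by -0.53, -0.28 and -0.51, and Cox5b by -0.41, -0.53 and -0.35. No KO library reached a WT library of the same condition for any of these 5 genes. The share of all genes without such overlap is not given here. Exons of Ndufs1 overlap those of Eef1b2 on the other strand.

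Genes elsewhere were also lower in KO in all 3 conditions: Cox7b on chromosome X, Uqcr10 on chromosome 11 and Cox8a on chromosome 19, all coding for small membrane subunits. Cox7b had 264 and 253 CPM in KO and 378 and 401 CPM in WT cells without treatment, 224 and 186 CPM in KO and 316 and 315 CPM in WT cells with doxycycline, and 146 and 140.1 CPM in KO and 217 and 225.5 CPM in WT cells with retinoic acid. The log2 changes were -0.59 ± 0.06, -0.62 ± 0.06 and -0.63 ± 0.06. The KO and WT responses of Cox7b to either treatment were not called different. Of 672 tested genes on chromosome X, 30.5% were lower in KO without treatment (median log2 change -0.16), and the other 2 tested members there, Ndufa1 and Ndufb11, were not among them. Uqcr10 changed by -0.43, -0.57 and -0.41, and Cox8a by -0.22, -0.30 and -0.19. With retinoic acid neither gene was called without KO replicate 1, KO replicate 2 or WT replicate 2 of that treatment.

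**Figure D4:**
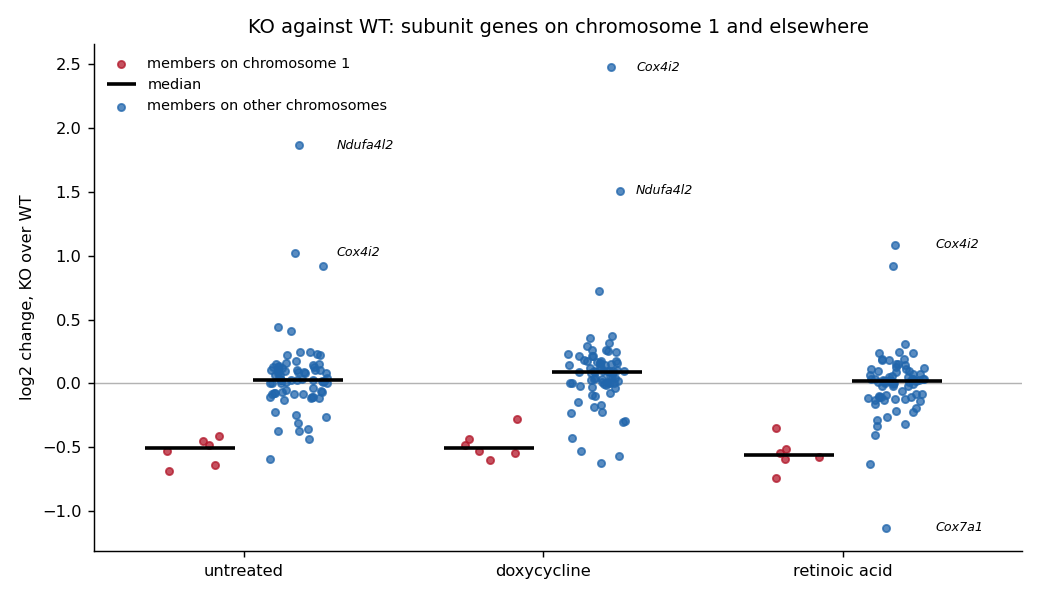
Log2 change of each tested subunit gene, KO over WT on the TMM scale, in 3 conditions, for the 6 members on chromosome 1 (red) and the 74 on other chromosomes (blue), with black bars for medians. The chromosome 1 members have medians of -0.51, -0.51 and -0.56, and those elsewhere 0.03, 0.09 and 0.02. Names mark genes beyond 1 on this scale that are not on chromosome 1, of which Ndufa4l2 with doxycycline was not called.

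In each comparison of KO with WT cells the largest called change was that of an isoform gene. Tissue-specific isoforms of complex IV replace common subunits in muscle, lung or testis, and low oxygen induces some of them. Cox4i2, the isoform known from lung and low oxygen (ENSMUSG00000009876.13, chr2:152754173-152765037), was the gene that was higher in KO in all 3 conditions. It was at 2.80 and 3.41 CPM in KO and 0.477 and 0.606 CPM in WT cells with doxycycline, 3.84 and 3.92 CPM in KO and 1.94 and 1.70 CPM in WT cells with retinoic acid, and 2.76 and 3.16 CPM in KO and 1.35 and 1.56 CPM in WT cells without treatment. The KO over WT log2 change was 2.48 ± 0.30 with doxycycline (edgeR adjusted p = 1.5e-07), 1.09 ± 0.22 with retinoic acid (edgeR adjusted p = 0.00021) and 1.02 ± 0.26 without treatment (edgeR adjusted p = 0.0028). The doxycycline response itself differed between the lines. Cox4i2 changed by 0.06 ± 0.22 in KO, which was not called, and by -1.39 ± 0.35 in WT cells, a difference of 1.45 ± 0.42 (edgeR adjusted p = 0.013), which was not called without WT untreated replicate 2 or WT doxycycline replicate 1 (edgeR adjusted p = 0.062 and 0.06). The gene stayed a minor isoform: it made up at most 0.954% of the summed TPM of Cox4i1 and Cox4i2 in any library, and its counts were 7 to 82 per library.

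Ndufa4l2, a relative of Ndufa4 known as a target of hypoxia-inducible factors (ENSMUSG00000040280.10, chr10:127514967-127517154), had 6.34 and 8.02 CPM in KO and 1.65 and 2.30 CPM in WT cells without treatment. It fell to 0.168 and 0.359 CPM in KO and 0.0681 and 0.101 CPM in WT cells with doxycycline, which is 1 to 6 counts per library. The log2 changes with doxycycline were -4.75 ± 0.36 in KO and -4.40 ± 0.58 in WT cells, fitted values that depend on the prior count at such depth. By counts alone, 9 against 231 in KO and 3 against 65 in WT cells gave doxycycline over untreated ratios of 0.0361 (95% exact interval 0.0163 to 0.0697) in KO and 0.0442 (0.00889 to 0.135) in WT cells, which cover counting error only. With retinoic acid it was at 4.17 and 5.60 CPM in KO and 4.18 and 6.43 CPM in WT cells, so KO and WT overlapped there. Relative to untreated cells this was a fall of 0.57 in KO (log2 change -0.57 ± 0.21, edgeR adjusted p = 0.017), which was not called with library totals (-0.24, edgeR adjusted p = 0.3) or on log2(TPM + 1) (-0.04, limma adjusted p = 0.9), and a rise in WT cells (1.42 ± 0.25, edgeR adjusted p = 1.6e-05), a difference between the lines of -1.98 ± 0.33 (edgeR adjusted p = 6.7e-05). Its exons overlap those of Shmt2 on the other strand, and its effective length was between 433 and 764 bases among libraries.

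Cox6b2, the testis isoform of subunit 6b (ENSMUSG00000051811.14, chr7:4751792-4753094), reached 31.4 and 32.6 CPM in KO and 26.6 and 27.3 CPM in WT cells with retinoic acid, against 21.2 and 17.6 CPM in KO and 10.1 and 10.4 CPM in WT cells without treatment. It made up 21.3% in KO and 19.0% in WT cells with retinoic acid of the summed TPM of Cox6b1 and Cox6b2, against 11.2% in KO and 5.78% in WT cells without treatment. With doxycycline it was at 6.66 and 6.15 CPM in KO and 7.56 and 6.21 CPM in WT cells, and made up 3.89% in KO and 3.99% in WT cells. Both treatments were therefore called in both lines, in opposite directions. The untreated KO cells started at a higher level than untreated WT cells (log2 change 0.92 ± 0.11, edgeR adjusted p = 2.9e-07), and the responses differed by -1.0 ± 0.18 for doxycycline and -0.67 ± 0.14 for retinoic acid, KO minus WT. Of the markers of germ cells, the 6 genes summed to 147 to 149 CPM in KO and 90.7 to 100.4 CPM in WT cells with retinoic acid, against 40.4 to 47.3 CPM in KO and 35.2 to 38.7 CPM in WT cells without treatment. Most of that sum was Dazl, at 113.1 and 113.4 CPM in KO and 66.0 and 57.8 CPM in WT cells with retinoic acid, whereas Sycp3 was lower with retinoic acid, at 5.94 and 5.54 CPM in KO and 5.64 and 6.23 CPM in WT cells, against 11.4 and 13.7 CPM in KO and 10.1 and 11.8 CPM in WT cells without treatment. With doxycycline, where Cox6b2 fell, the markers summed to 50.7 to 55.9 CPM in KO and 37.6 to 42.3 CPM in WT cells. Of these markers 4 were tested, Tnp1 had 0 counts in every library and Prm1 at most 1. Their part in the change of Cox6b2 was not tested.

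Cox7a1, the heart and skeletal muscle isoform of subunit 7a (ENSMUSG00000074218.3, chr7:30184144-30186078), was at 5.43 and 6.17 CPM in KO and 10.7 and 14.8 CPM in WT cells with retinoic acid, against 3.52 and 4.01 CPM in KO and 3.35 and 2.30 CPM in WT cells without treatment. The log2 change was 0.62 ± 0.20 in KO and 2.16 ± 0.19 in WT cells, a difference of -1.54 ± 0.29 (edgeR adjusted p = 0.00034). WT cells with retinoic acid stood highest of all groups. The gene made up 11.6% in KO and 22.4% in WT cells with retinoic acid of the summed TPM of Cox7a1, Cox7a2 and Cox7a2l, against 5.49% in KO and 4.33% in WT cells without treatment. With doxycycline it was at 7.38 and 5.74 CPM in KO and 3.88 and 4.04 CPM in WT cells, higher in KO by 0.73 ± 0.20, which was not called without KO doxycycline replicate 1 (edgeR adjusted p = 0.093). The 8 striated muscle markers summed to 10.7 to 12.9 CPM in KO and 11.8 to 12.9 CPM in WT cells with retinoic acid, against 8.33 to 9.29 CPM in KO and 10.0 to 11.2 CPM in WT cells without treatment. Of the 6 tested, 4 were called higher and 0 lower with retinoic acid in KO cells, and 1 higher and 1 lower in WT cells. Their part in the change of Cox7a1 was not tested.

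Cox8c, the testis isoform of subunit 8, had 0 to 19 counts per library. It was at 0.889 and 0.523 CPM in KO and 0.396 and 0.349 CPM in WT cells with retinoic acid, against 0.192 and 0.304 CPM in KO and 0.176 and 0.187 CPM in WT cells without treatment, and called higher in KO cells (edgeR adjusted p = 0.031). With doxycycline it was at 0 and 0.0598 CPM in KO and 0 and 0.0505 CPM in WT cells, at or under the limit that 3 counts set.

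Atp5s, the coupling factor, was at 12.3 and 13.2 CPM in KO and 12.5 and 12.7 CPM in WT cells with retinoic acid, against 4.49 and 4.26 CPM in KO and 4.18 and 4.48 CPM in WT cells without treatment, log2 changes of 1.54 ± 0.14 in each line. On the TPM scale the untreated libraries were at 10.3 and 8.91 TPM in KO and 4.92 and 6.14 TPM in WT cells, although their CPM overlapped, since its effective length lay between 533 and 1043 bases among libraries.

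**Figure D5:**
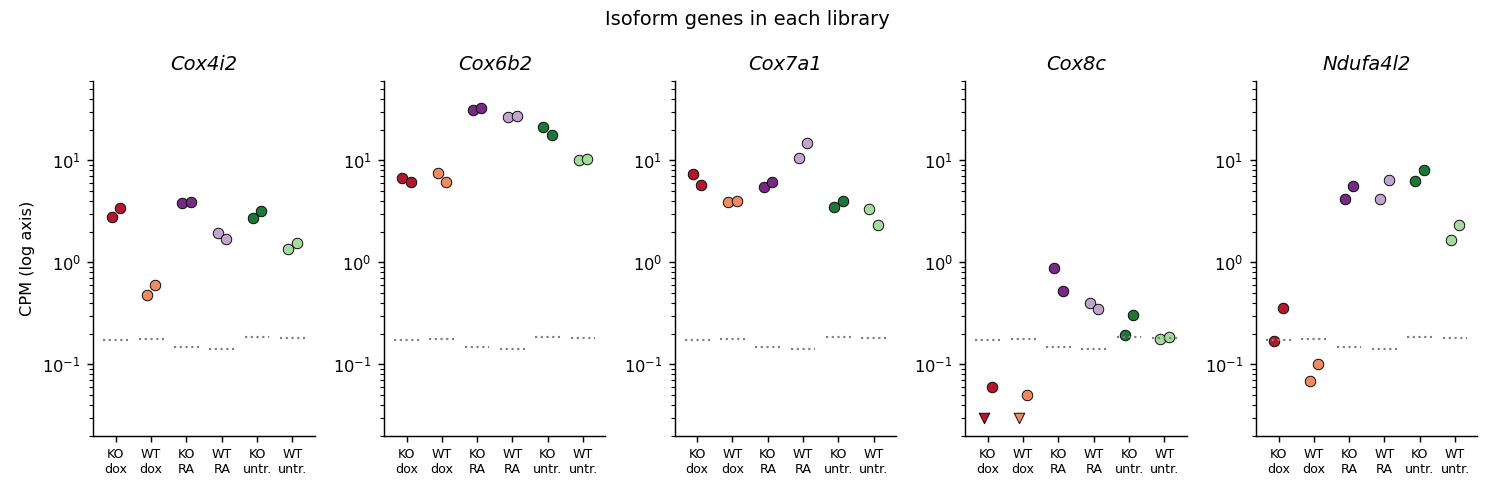
CPM of 5 isoform genes in each library on a log axis. Dotted lines show the CPM of 3 counts, averaged over the group, and triangles at the lower edge mark libraries with 0 counts. Cox4i2 with doxycycline is at 2.80 and 3.41 CPM in KO against 0.477 and 0.606 CPM in WT cells, and Cox7a1 with retinoic acid at 5.43 and 6.17 CPM in KO against 10.7 and 14.8 CPM in WT cells.

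Whether KO and WT cells responded differently was tested as the difference of the log2 changes, KO minus WT. For doxycycline 8 members had a positive and 3 a negative difference, where 9.11% of all genes were called positive and 10.0% negative. For retinoic acid 1 was positive and 7 negative, where 7.31% of all genes were positive and 10.3% negative. Both counts are near or below those shares, and the difference was not called for 69 members with doxycycline and 72 with retinoic acid. Beside the isoform genes, Atp5j2, subunit f of ATP synthase, was at 134 and 132.5 CPM in KO and 109 and 108 CPM in WT cells with doxycycline, against 141 and 140.0 CPM in KO and 138 and 159 CPM in WT cells without treatment, a difference of 0.38 ± 0.08 (edgeR adjusted p = 0.0018). Cox5a, on the matrix side of complex IV, was at 147 and 148 CPM in KO and 169.8 and 175 CPM in WT cells with retinoic acid, against 289 and 283 CPM in KO and 267 and 267 CPM in WT cells without treatment, a difference of -0.33 ± 0.08 (edgeR adjusted p = 0.0032). For doxycycline, the 11 calls became 18 without KO doxycycline replicate 1, 7 without WT doxycycline replicate 1, KO untreated replicate 2 or KO retinoic acid replicate 1 or 2, 6 without KO untreated replicate 1 and 5 without WT untreated replicate 2. For retinoic acid, the 8 calls became 14 without either KO doxycycline replicate, 5 without WT untreated replicate 1 or 2, KO untreated replicate 1, WT retinoic acid replicate 2 or KO retinoic acid replicate 1, and 4 without KO retinoic acid replicate 2.

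Other mitochondrial gene groups are given for comparison, from lists that earlier results of these data may have shaped. Among 75 mitochondrial ribosomal protein genes, which build the ribosomes that translate the mitochondrially encoded subunits, 64 fell in KO and 68 in WT cells with retinoic acid, with medians of -0.67 in KO and -0.71 in WT cells, and 44 fell in either line with doxycycline. Of 47 tested assembly factors 30 fell in KO and 32 in WT cells with retinoic acid, and of 17 enzymes of the citric acid cycle and pyruvate dehydrogenase 12 fell in KO and 13 in WT cells. Of all genes, 34.6% in KO and 32.9% in WT cells were called lower with retinoic acid, and 31.2% in KO and 31.3% in WT cells with doxycycline. With retinoic acid the subunits thus moved in the same direction as these lists on the TMM scale. The lists' values on the other scales are not given here. Of the 13 mitochondrially encoded subunits 7 fell in either line with retinoic acid on the TMM scale, and mt-Nd6 rose in KO cells (0.47). The 13 summed to 10230 to 10900 CPM in KO and 11000 to 11530 CPM in WT cells, against 14160 to 14170 CPM in KO and 14980 to 15950 CPM in WT cells without treatment. As a share of all counts, without TMM, mitochondrial genes made up 1.278% and 1.194% in KO and 1.338% and 1.274% in WT cells with retinoic acid. Without treatment they made up 1.315% and 1.328% in KO and 1.377% and 1.458% in WT cells. Among the 13, mt-Nd1 changed by -0.89 in KO and -1.13 in WT cells and mt-Cytb by -0.83 in KO and -0.58 in WT cells. With doxycycline 1 of the 13 fell in either line, mt-Co1, at -0.29 in KO and -0.35 in WT cells, while 3 rose in KO and 1 in WT cells, mt-Cytb in both at 0.45 in KO and 0.37 in WT cells.

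Of 15 regulators of mitochondrial gene expression 10 fell in either line with retinoic acid on the TMM scale. Pprc1, a coactivator of the PGC-1 family, changed by -1.74 in KO and -1.41 in WT cells, Gabpa, the ETS factor known as a subunit of NRF-2, by -1.06 in KO and -0.66 in WT cells, and both kept their sign with library totals and on log2(TPM + 1). Tfam, which packs mitochondrial DNA, changed by -0.57 in KO and -0.50 in WT cells, but by 0.40 in KO and 0.24 in WT cells on log2(TPM + 1). Nrf1 changed by -0.30 in KO and -0.22 in WT cells, but by 0.03 in KO and 0.13 in WT cells with library totals and by 0.24 in each line on log2(TPM + 1). Yy1, whose core was also searched, was not called in KO (-0.01) and rose in WT cells (0.17). Esrra, a nuclear receptor active on respiratory genes, rose by 0.35 in KO and 0.85 in WT cells. Ppargc1a rose too, at 1.17 and 0.418 CPM in KO and 0.528 and 0.648 CPM in WT cells with retinoic acid, against 0.192 and 0.122 CPM in KO and 0 and 0.0623 CPM in WT cells without treatment. The part of these regulators in the change of the subunits was not tested. Cyct, the testis form of the electron carrier cytochrome c, reached 8.19 and 8.47 CPM in KO and 6.34 and 6.48 CPM in WT cells with retinoic acid, against 2.82 and 2.37 CPM in KO and 1.06 and 1.87 CPM in WT cells without treatment. The common form Cycs fell at the same time, with log2 changes of -0.68 in KO and -0.87 in WT cells.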

How the data were processed

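RNA-seq of 12 mouse ES cell libraries, 2 in each of 6 groups, was analysed at the level of genes. The deposited tables hold expected counts and TPM per gene, per the file headers. Per the submitters' processing notes, STAR 2.5.3a, RSEM 1.3.0 and DESeq2 1.18.1 were used with mm10; which annotation release and strand setting were used is not given in the sources used here.

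From the authors' expected counts, rounded to whole numbers, genes were kept by edgeR's filterByExpr (minimum count 10), leaving 17884. One quasi-likelihood model (edgeR 4.0.16, R 4.3.3) with TMM factors was fitted over all 6 groups, with Benjamini-Hochberg adjustment over all genes and a threshold of 0.05. CPM divide the rounded counts by library sizes scaled with TMM. The deposited TPM values served for levels between genes and for isoform shares. Libraries of 15799517 to 21441996 counts set a value of 3 counts at 0.132 to 0.204 CPM.

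The members and lists were chosen with earlier results of these data known. Any member could be named. Full statistics were meant for the 5 largest called changes in either direction of each comparison, the isoform genes, the members on chromosome 1 and the highest and lowest member of each complex. The values of 1 member on chromosome 1 are not reported here. Other genes given with values were picked after these were seen. Alternatives were other scale factors, effective-length offsets, filters, DESeq2 1.42.0, limma 3.58.1, a replicate block and leaving out libraries. Gene positions come from GENCODE M21 (GRCm38), in which 53274 of 53379 IDs were found, and promoter windows from RefSeq (GRCm38.p6). Exons of 29 members overlap those of another gene, 26 of them on the opposite strand, and 25 members had counts that were not whole.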

Additional observations from a re-analysis of the deposited data

Results flagged for a closer look

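The members below are listed because the test of the difference between lines, KO minus WT, passed an edgeR adjusted p of 0.05. The comparisons within each treatment share their libraries, and no explanation was tested.

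For doxycycline, the difference of the log2 changes was -1.0 for Cox6b2, -0.42 for Ndufv3 and -0.33 for Cox6a1. It was 0.20 for Atp5g3, 0.25 for Uqcrh, 0.25 for Sdhc, 0.25 for Atp5c1, 0.35 for Ndufc1, 0.38 for Atp5j2, 0.43 for Ndufc2 and 1.45 for Cox4i2. For retinoic acid, the difference was -1.98 for Ndufa4l2, -1.54 for Cox7a1, -0.67 for Cox6b2, -0.44 for Ndufs8, -0.33 for Cox5a, -0.24 for Ndufv1 and -0.24 for Uqcrb. Uqcrfs1, at 0.26, was the single member with a positive difference for retinoic acid. Cox6b2 had a negative difference for both treatments, which share the untreated libraries.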

How the results depend on the processing

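Values below are given for the named genes and the counts of called members under each alternative; the cause was not tested unless stated. Total-count scaling, limma on log2(TPM + 1) and the crossed block were chosen after seeing the data. Of 265 named values, 263 kept direction and side of the threshold with the replicate block, 257 with RLE factors, 253 with no filter, 251 with upper-quartile factors, 244 with effective-length offsets, 237 with total-count scaling and 197 with limma on log2(TPM + 1).

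Of 74 members below 0 with TMM and retinoic acid in either line, 33 in KO and 31 in WT cells were above 0 on log2(TPM + 1), and 12 in KO and 13 in WT cells with total-count scaling. For doxycycline, 13 of 57 members below 0 with TMM in KO and 8 of 62 in WT cells were above 0 on log2(TPM + 1). Among the genes picked by the naming rule, some log2 changes turned with limma on log2(TPM + 1). For retinoic acid in KO cells they included Cox4i1 0.16, Cox6a1 0.42, Cox6b1 0.24, Cox7a2l 0.41, Ndufa4 0.24, Ndufb3 0.12, Sdhc 0.23, Sdhd 0.087 and Uqcrfs1 0.025. In WT cells with retinoic acid they included Cox4i1 0.095, Cox6a1 0.41, Cox6b1 0.10, Cox7a2l 0.46, Ndufa4 0.11, Ndufb3 0.23 and Sdhc 0.063, and for doxycycline in KO cells Sdhc 0.076. With total-count scaling and retinoic acid, Cox6a1 turned to 0.17 and Cox7a2l to 0.20 in KO cells, and Cox6a1 to 0.22, Cox7a2l to 0.29 and Ndufb3 to 0.045 in WT cells. With TMM and retinoic acid, Cox7a2l in both lines and Cox6a1 in WT cells were not called. For doxycycline in WT cells, Ndufv3 turned to -0.077 with effective-length offsets and Uqcrc2 to -0.002 with upper-quartile factors.

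Members called for retinoic acid were 48 in KO and 47 in WT cells with limma on log2(TPM + 1), against 74 in KO and 73 in WT cells with TMM. Those called between untreated KO and WT cells were 16 without chromosome 1 genes, 8 higher and 8 lower, against 26 with them, 12 higher and 14 lower, of which 6 lower ones lie on that chromosome. For the difference of doxycycline responses the 11 calls became 17 with upper-quartile factors and 6 with effective-length offsets, limma or DESeq2. For that of retinoic acid the 8 calls became 18 with only the groups compared and 5 with effective-length offsets, limma or DESeq2. Leaving out 1 library gave 18 to 30 calls between KO and WT in untreated cells, 26 to 43 with doxycycline and 14 to 30 with retinoic acid. It gave 42 to 52 for doxycycline in KO and 48 to 58 in WT cells, 66 to 77 for retinoic acid in KO and 70 to 75 in WT cells, and 5 to 18 and 4 to 14 for the differences of doxycycline and retinoic acid responses.

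Same-numbered libraries did not deviate together (correlations of -0.112 to 0.0755). With the replicate block the calls were 26, 30 and 25 between KO and WT cells (untreated, doxycycline, retinoic acid), 50 and 53 for doxycycline in KO and WT cells, 73 and 73 for retinoic acid, and 11 and 7 for the differences. A crossed replicate block gave 33 calls between KO and WT cells with doxycycline, 18 higher and 15 lower.

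With 2 libraries a group, a lone library was assumed to vary like the others. Depth limits Cox8c, Cox4i2 and Ndufa4l2, which had few counts.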
